A study of Phaseolus vulgaris with 12 samples.

Results

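Genes whose listed model has 1 exon were followed across drought and seed coating in leaves of dwarf bean (Phaseolus vulgaris). The members were all genes with an exon number of 1 and at least 10 gene reads in 3 or more libraries, and there were 3775 of them among the 27996 genes listed. The same read minimum was passed by 17820 genes of 2 or more exons, so that 21595 genes were tested in all. Plants of the genotype Dwarf messi had been grown from seeds coated with a polymer alone or with the polymer and 114 mM 6PP, which is 6-pentyl-α-pyrone, a volatile compound made by fungi. Afterwards they were watered throughout or received no water for 16 days, so that the groups were watered polymer, watered 6PP, drought polymer and drought 6PP. All groups carried the polymer, and each library was made from a pool of leaves of 5 plants. Plants grew in 2 chambers, and the sources used here do not state how the watering regimes were divided between them, so chamber and regime cannot be told apart.

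The libraries used were 3 of watered polymer, 3 of watered 6PP, 3 of drought polymer and 1 of drought 6PP plants, with 39974999 to 55648172 gene reads each. The labelled tissue held leaf transcripts, since RBCS_1, a small subunit of Rubisco, had 1799 to 30560 TPM, and the 3 leghemoglobin genes of root nodules had 0 TPM in every library. The drought 6PP library stood apart in that 8.0% of its gene reads lay on introns, against 4.97% to 6.35% in the others. Watered polymer replicate 1 also stood apart. In it 8.05% of the members had 0 reads, against 0.37% and 0.56% in the other libraries of its group, and 153 members had 0 reads there but at least 10 in both of those libraries. In the other replicated libraries the same count was at most 9. Class summaries for the polymer drought and the well-watered coating comparisons, and fold changes under drought of named genes that moved by 0.6 or more, are also given below without this library.

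Most plant genes are interrupted by introns, which are removed from the transcript by splicing. Genes without introns make up a minority of a plant genome and include many members of large families of receptors, protein kinases and transcription factors, among them the DREB factors that bind dehydration-responsive promoter elements. They are known to arise by tandem duplication of other intronless genes, by copying of a spliced transcript back into the genome and by loss of introns. Introns are also known to raise the expression of many plant genes that carry them.

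The 3775 members were 63.3% of the 5967 single-exon genes listed. Of the remaining 2192 genes, 1233 had 0 reads in all 10 libraries. Among genes of 2 or more exons, 80.9% passed the same minimum. Passing the minimum depended on the condition for few members, since 53 passed through drought libraries only and 212 through well-watered libraries only. At least 10 reads in every library were found for 2746 members. Single-exon genes were 16.2% of the tested genes of chromosome 10 and 20.2% of those of chromosome 4, with the other chromosomes in between.

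The listed models of the members were shorter than those of other genes, with a median exon length of 1314 bases against 1777, and ranged from 114 to 11181 bases. The length was a multiple of 3 in 49.2% of the members, in 37.3% of the other genes tested and in 70.5% of the single-exon genes below the read minimum. Those below the minimum had a median length of 584 bases. A neighbouring single-exon gene on the chromosome was more frequent for members, at 44.5%, than for genes of 2 or more exons, at 33.8%. The model overlapped another gene model in 2.44% of members and 2.37% of other genes, and for these genes the reads cannot be assigned to a strand because the strand setting of the counting is not stated. Fewer than 90% of reads were uniquely placed for 100 members, or 2.65%, against 1.40% of other genes. Although the models have no intron, 2.58% to 3.56% of their reads were listed as intron reads, and 1 gene, PHAVU_003G113300g, held 16.4% of these.

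Single-exon genes were less abundant than other genes in every library. TPM, which scales exon reads for length and library total, had a median of 5.30 over members and 13.2 over genes of 2 or more exons when averaged over the libraries. The median TPM of members was 5.24, 5.28 and 4.94 in watered polymer replicates 1 to 3 and 5.09, 4.95 and 4.92 in watered 6PP. It was 4.16, 3.97 and 4.27 in drought polymer and 2.95 in the drought 6PP library. All 3 drought polymer libraries lay below all 6 well-watered libraries. Genes of 2 or more exons did not show this order, with medians of 12.3 to 13.1, 11.5 to 12.7, 12.4 to 13.3 and 9.77 in the same groups. Genes of 2 or more exons matched to the members on mean TPM and exon length had medians of 5.29 to 5.59 in watered polymer and 4.31 to 4.86 in drought polymer, with 3.34 in the drought 6PP library. In watered 6PP the matched genes had 4.84 to 5.25. The drought polymer libraries of matched genes thus lay below watered polymer but reached 4.86, just above the lowest watered 6PP library, so the separation from all 6 well-watered libraries was seen for members and not for matched genes. No test was made of this difference.

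Of all TPM, the members took 18.5%, 16.6% and 16.0% in the watered polymer libraries and 17.9%, 17.8% and 17.7% in watered 6PP. They took 15.9%, 17.3% and 14.5% in drought polymer and 26.9% in the drought 6PP library. The drought and watered polymer libraries overlapped, and the drought 6PP library lay above the other 9. A few very abundant genes carried much of this variation. PHAVU_011G120500g, on chromosome 11 from 21156313 to 21157324, had 4187, 1367 and 1227 TPM in watered polymer, 2395, 3033 and 2329 in watered 6PP, 3025, 4959 and 812 in drought polymer and 26820 in the drought 6PP library. Its level therefore differed more among the replicates of a polymer group than between the means of the polymer groups, and it was highest in the drought 6PP library.

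**Figure D1:**
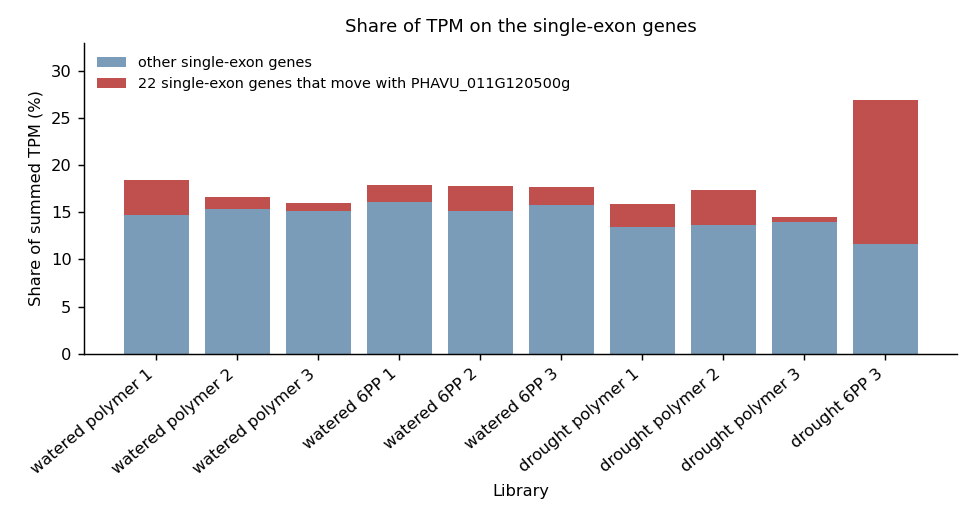
Share of summed TPM (%) on the 3775 single-exon genes in each of the 10 libraries. The red part stands for 22 single-exon genes that followed PHAVU_011G120500g, which took 0.50% in drought polymer replicate 3 and 15.3% in the drought 6PP library, while the blue part stayed between 11.7% and 16.0%.

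Across the 10 libraries, 30 genes of at least 10 TPM had a log2(TPM + 1) that correlated with that of PHAVU_011G120500g at r of at least 0.95. This group was picked after its values were seen and is a description over 10 libraries that share depth and processing. It held 22 single-exon genes, of which 17 were under 500 bases long, with a median exon length of 280 bases. All 22 were highest in the drought 6PP library, and 20 were lowest in drought polymer replicate 3. The summed TPM of the 22 genes differed 30.6-fold between these extremes. Between drought and watered polymer plants 0 of the 22 had an FDR of 0.05 or less by edgeR or by DESeq2 and 0 an unadjusted p under 0.05 by edgeR, where the lowest FDR was 0.149. The libraries of both groups overlapped for each of these genes. The share of TPM on the remaining members was 14.7% to 15.4% in watered polymer, 15.1% to 16.0% in watered 6PP, 13.5% to 14.0% in drought polymer and 11.7% in the drought 6PP library. Here the TPM of the group stays in the total, so its rise in the drought 6PP library lowers the share of the rest there. With all 30 genes left out of the total as well, the remaining members took 15.3% to 15.6% in watered polymer, 15.6% to 16.4% in watered 6PP, 13.9% to 14.3% in drought polymer and 14.7% in the drought 6PP library, which then lay between drought polymer and the well-watered libraries. Files do not give a product name for these genes, and none is offered here.

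Of the 10 members with the highest mean TPM, 6 belonged to this group, namely PHAVU_011G120500g, PHAVU_011G121000g, PHAVU_008G141300g, PHAVU_003G067400g, PHAVU_002G203800g and PHAVU_001G037800g. Of these, PHAVU_002G203800g had the largest ratio of its highest to its lowest level, from 405 TPM in drought polymer replicate 3 to 16240 in the drought 6PP library. The log2 fold changes of these 6 genes under drought, in the order named, were 0.37, 0.23, 0.15, 0.04, −0.08 and 0.13. Without watered polymer replicate 1 they were 1.17, 0.93, 1.16, 0.67, 0.88 and 1.07, with an FDR of 0.0993 or higher for each. The other 4 behaved differently. PHAVU_002G196400g, on chromosome 2 from 35352125 to 35353122, had 9947, 11010 and 11410 TPM in watered polymer, 12330, 11620 and 12200 in watered 6PP, 4073, 6542 and 6625 in drought polymer and 789 in the drought 6PP library. Its drought libraries lay below every well-watered library, and its log2 fold change in polymer plants was −0.92 (standard error 0.20, FDR = 0.00191), which missed the Bonferroni limit used for calls. PHAVU_002G168000g and PHAVU_009G174000g had 3230 to 5270 TPM in the 9 other libraries and 916 and 1174 in the drought 6PP library. The most abundant, PHAVU_002G196000g, had 4906 to 13500 TPM, but 0% of its reads were uniquely placed and its model overlaps another, so its level is uncertain.

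**Figure D2:**
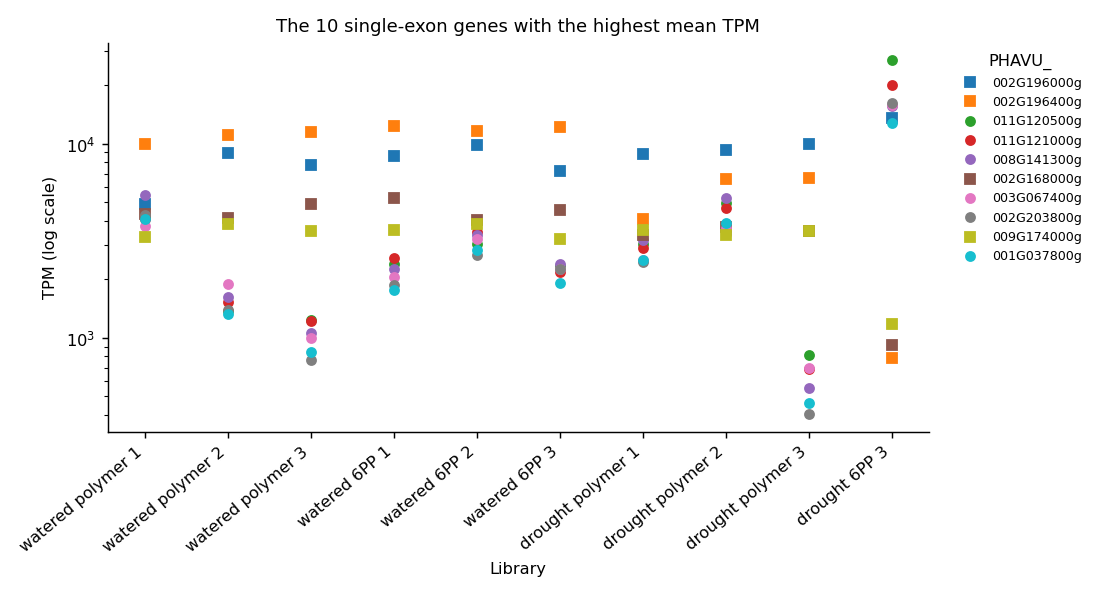
TPM (log scale) of the 10 most abundant single-exon genes in each library, with circles for the 6 genes that followed PHAVU_011G120500g and squares for the other 4. Circles lie together in every library, lowest in drought polymer replicate 3 and highest in the drought 6PP library, where PHAVU_002G196400g, PHAVU_002G168000g and PHAVU_009G174000g are at 789 to 1174 TPM.

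The first comparison asked which genes changed with drought in plants without 6PP, with 3 libraries per group. A gene was called when its log2 fold change was 0.6 or more in size, its FDR at most 0.01 and its Bonferroni-adjusted p at most 0.05 over all 21595 genes (edgeR quasi-likelihood test on total gene reads). In bulk leaf RNA, fewer cells of a type and less RNA per cell cannot be told apart. Calls were made for 460 single-exon genes, or 12.2% (95% Wilson interval 11.2% to 13.3%, counting error only), of which 180 were higher and 280 lower under drought. The interval treats genes as independent, which genes of the same libraries are not, and leaves out the spread between libraries. Over all genes tested the share called was 12.6%, with 5.2% higher and 7.4% lower, so the members' share was close to the background. Genes of 2 or more exons matched on mean TPM and exon length were called in 9.05%, and those without matching in 12.7%. At an FDR of at most 0.05 without the other limits, 54.2% of members passed, against 57.9% of all genes and 52.9% of the matched genes. Drought and watered polymer libraries did not overlap for 63.3% of members, beside 67.3% of all genes. Without watered polymer replicate 1, 382 members were called (10.1%, beside 9.76% of all genes and 7.0% of matched genes), 154 higher and 228 lower. Without it 54.6% of members had an FDR of at most 0.05, beside 56.8% of all genes, and libraries did not overlap for 73.8% of members, beside 76.7%. Without drought polymer replicate 2, which moved the count most, 294 members were called, or 7.79%, beside 5.15% of matched genes.

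Over all members together, the median size of the change with drought was larger than over matched genes. Classes of abundance differed in this, as given below. Here and below, medians and shares over classes of genes are descriptions without a test. The median absolute log2 fold change under drought was 0.82 over members, 0.67 over matched genes and 0.58 over all other genes. A log2 fold change of 1 or more in size was found in 42.8% of members, 37.2% of matched genes and 31.1% of other genes. The fold changes of members were also less certain, with a median standard error of 0.27 against 0.24 in matched and 0.16 in other genes. The median signed log2 fold change was −0.09 over members and −0.10 over matched genes, beside 0.01 over other genes, so the slight downward shift was shared with genes of the same abundance and length. Without watered polymer replicate 1 the median absolute log2 fold change was 0.79 over members, 0.65 over matched genes and 0.56 over other genes, and the share of at least 1 in size was 41.9%, 35.8% and 29.9%.

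Genes of 2 exons lay closest to the members. Their median absolute log2 fold change was 0.74, and it was 0.66 for 3 to 5 exons, 0.52 for 6 to 10, 0.47 for 11 to 19 and 0.42 for 20 to 80 exons. The share called did not follow this order, with 11.9%, 13.4%, 12.8%, 12.8% and 8.26% in the same classes. Abundance differed as well, from a median of 7.57 TPM in genes of 2 exons to 15.8 TPM in genes of 11 to 19 exons.

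**Figure D3:**
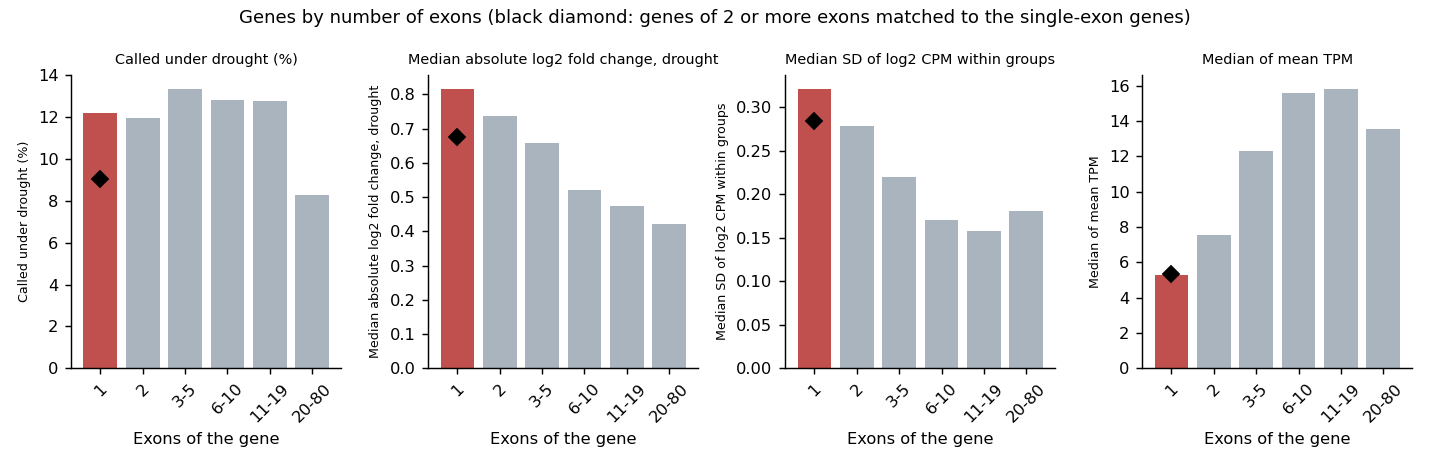
Genes by number of exons, with the share called under drought (%), the median absolute log2 fold change under drought, the median SD of log2 CPM within groups and the median of the mean TPM. The red bar stands for the single-exon genes and the black diamond for matched genes of 2 or more exons, whose values of 9.05%, 0.67 and 0.28 lie below the red bars of 12.2%, 0.82 and 0.32.

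Calls among members depended on abundance. In 5 equal classes of the members from the lowest to the highest mean TPM, 0, 28, 70, 138 and 224 of 755 genes were called. These were 0%, 3.71%, 9.27%, 18.3% and 29.7%. Among genes of 2 or more exons in the same ranges of TPM 0.84%, 4.92%, 11.8%, 12.3% and 20.7% were called. Members were therefore called less often than these genes in the 3 lower classes, up to 8.46 TPM, and more often in the 2 higher ones. The median absolute log2 fold change followed a similar order, with 1.18, 0.90, 0.68, 0.68 and 0.68 over members and 1.25, 0.92, 0.56, 0.44 and 0.51 over the other genes, so that members had the smaller median in the 2 lowest classes and the larger one in the 3 above. These ranges are not matched on exon length. Over 5 classes of exon length the share called was between 9.89% and 14.7%. The shortest class, up to 693 bases, had a median absolute log2 fold change of 1.0, against 0.56 in the longest.

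Among the members, 17 carry a symbol in the files. Under drought 2 of them rose, 3 fell and 12 were not called. Over all genes tested 12.6% were called, and over all members 12.2%. No test of this count was made. The 2 that rose encode CBL-interacting protein kinases, which relay signals of the calcineurin B-like calcium sensors. PvCIPK4 (PHAVU_009G087500g, chromosome 9, 13654577 to 13656673) had 43.1, 41.1 and 46.3 CPM in watered polymer libraries and 450, 445 and 341 in drought polymer libraries. CPM here are gene reads scaled to a common library size with TMM factors. The groups did not overlap, and the log2 fold change was 3.24 (standard error 0.16, FDR = 3.44e-08). PvCIPK2 (PHAVU_003G156900g, chromosome 3, 36218742 to 36220895) rose from 85.9, 75.8 and 80.8 CPM to 371, 367 and 312, which is 2.11 on the log2 scale (standard error 0.13, FDR = 1.84e-07). Another gene with a symbol of this family, PvCIPK3 (PHAVU_010G160900g, chromosome 10, 42911990 to 42913864), fell from 58.7, 45.3 and 46.5 CPM to 4.36, 2.41 and 3.54. Its log2 fold change was −3.86 (standard error 0.22, FDR = 1.13e-07), so that genes of the same kinase family were called in both directions.

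The DREB factors also differed in direction. DREB6B (PHAVU_002G254500g, chromosome 2, 42080727 to 42082576) fell from 10.9, 8.78 and 8.72 CPM to 3.22, 3.19 and 3.08. The log2 fold change was −1.58 (standard error 0.16, FDR = 8.28e-06). Its call was kept in 9 alternatives and lost in 9, with limma on TPM and the fit of these 2 groups alone among the latter. DREB5A (PHAVU_008G098900g, chromosome 8, 10466381 to 10466854) had 6.49, 11.7 and 13.4 CPM in watered polymer and 61.8, 47.5 and 47.6 in drought polymer. Its log2 fold change of 2.31 (standard error 0.26, FDR = 2.00e-05) stood just outside the limits, with a Bonferroni-adjusted p of 0.0554. PDX1 (PHAVU_006G171100g), a subunit of the vitamin B6 synthase, fell from 370, 325 and 296 CPM to 121, 135 and 115, a log2 change of −1.42 (standard error 0.12, FDR = 1.65e-06).

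Other genes with a symbol were not called. HHHT (PHAVU_006G037000g) had 60.0, 64.1 and 49.2 CPM in watered and 9.0, 13.9 and 16.7 in drought polymer plants, without overlap, and its Bonferroni-adjusted p was 0.103. The polygalacturonase-inhibiting proteins, which bind cell-wall-degrading enzymes of fungi, are encoded side by side on chromosome 2 by ppgip3, ppgip2 and PGIP1. ppgip3 (PHAVU_002G201700g) had 0.24, 0.10 and 0 CPM in watered and 1.22, 1.18 and 1.16 in drought polymer plants (FDR = 0.00617), a log2 fold change of 3.36 that was 4.31 without watered polymer replicate 1. ppgip2 (PHAVU_002G201800g) and PGIP1 (PHAVU_002G201900g) had overlapping groups, with log2 fold changes of 0.95 (standard error 0.38) and −0.79 (standard error 1.06). TrNARK (PHAVU_011G042100g), named for a receptor kinase that limits nodule number in clover, had 1.87 to 4.22 CPM in watered and 0.73 to 1.71 in drought polymer plants (FDR = 0.00696). O6FAD (PHAVU_001G142100g), ipK2 (PHAVU_011G214900g), ipK3 (PHAVU_003G200900g), MED4 (PHAVU_003G261400g), GT2 (PHAVU_008G103900g) and PVPR3 (PHAVU_011G212300g) had log2 fold changes between −0.97 and 0.27, with an FDR above 0.05 for each.

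**Figure D4:**
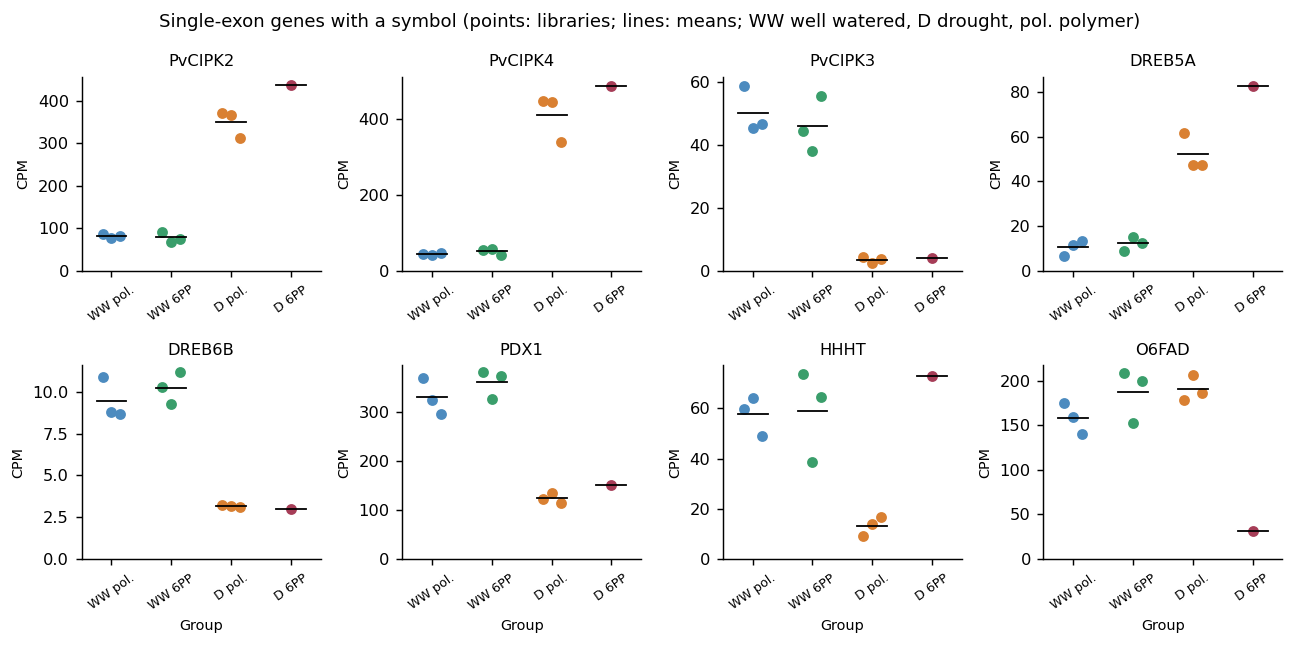
CPM of 8 single-exon genes with a symbol, by group, with a point for each library and a line for each mean (1 library in drought 6PP). PvCIPK2, PvCIPK4 and DREB5A are higher and PvCIPK3, DREB6B and PDX1 lower in both drought groups, while the drought 6PP library has 72.9 CPM of HHHT, above drought polymer, and 31.3 CPM of O6FAD, below all other libraries.

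The largest rises among called members that were uniquely placed and had at least 5 TPM were changes from near absence. PHAVU_011G106300g, on chromosome 11 from 12428315 to 12428823, had 0 reads in all watered polymer libraries and 59.3, 51.7 and 42.9 CPM in drought polymer libraries. Against the floor of 3 reads over the 3 watered libraries this was at least 2441-fold higher (FDR = 9.14e-09). PHAVU_006G166000g had 0, 0.03 and 0 CPM in watered and 226, 209 and 240 in drought polymer plants (log2 fold change 13.70, standard error 0.31). PHAVU_001G205900g and PHAVU_004G158800g had at most 0.09 CPM in watered polymer and 158 to 226 and 219 to 568 CPM under drought. PHAVU_001G264400g reached the highest level, from 0, 0.19 and 0.23 CPM to 773, 762 and 654, but 64.5% of its reads were listed as intron reads. PHAVU_005G044200g rose from 0.38, 0.12 and 0.12 CPM to 238, 227 and 210. The remaining 4, PHAVU_002G324800g, PHAVU_011G125300g, PHAVU_003G177800g and PHAVU_009G103600g, had at most 0.07 CPM in watered and 11.4 to 81.6 CPM in drought polymer plants. The fitted fold changes of genes with so few reads in 1 group depend on the prior count. Except for PHAVU_001G205900g, PHAVU_001G264400g and PHAVU_005G044200g, these genes had fewer than 10 reads in every well-watered library. Such genes passed the read minimum through drought libraries only, so a call could only be a rise. Their fold changes and FDR are not separate support for that direction.

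The largest falls ended at similarly low levels. PHAVU_010G129900g, on chromosome 10 from 39982780 to 39983851, had 1118, 690 and 693 CPM in watered polymer and 0.21, 0.24 and 0.91 in drought polymer plants (log2 fold change −10.84, standard error 0.58, FDR = 6.73e-08). PHAVU_006G202700g fell from 834, 476 and 506 CPM to 2.04, 1.09 and 1.30 (log2 fold change −8.67, standard error 0.39). PHAVU_003G131400g had 295, 186 and 195 CPM in watered plants and at most 0.15 under drought, and PHAVU_009G092000g had 235, 204 and 160 and at most 0.54. PHAVU_001G050300g and PHAVU_002G124100g fell from 70.7 to 203 and from 82.1 to 101 CPM to at most 0.31. PHAVU_002G225600g had 34.2 to 50.1 CPM in watered and at most 0.14 in drought polymer plants. PHAVU_004G021000g, PHAVU_004G096900g and PHAVU_008G030300g had 3.39 to 66.9 CPM in watered and 0 to 0.05 in drought polymer plants. The calls of PHAVU_004G021000g, PHAVU_001G050300g and PHAVU_008G030300g were lost when any drought library was left out. Those of PHAVU_004G021000g and PHAVU_008G030300g were lost in 7 alternatives each, among them limma on log2(TPM + 1) and the fit without watered polymer replicate 1. Without that library PHAVU_001G050300g kept its call with a log2 fold change of −8.30 in place of −8.94, and PHAVU_005G044200g, among the rises, had 10.85 in place of 10.13. PHAVU_002G225600g, PHAVU_003G131400g, PHAVU_004G021000g, PHAVU_004G096900g and PHAVU_008G030300g had fewer than 10 reads in every drought library. They passed the read minimum through well-watered libraries only, so a call could only be a fall. None of the 20 genes of largest rise or fall has a symbol in the files.

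**Figure D5:**
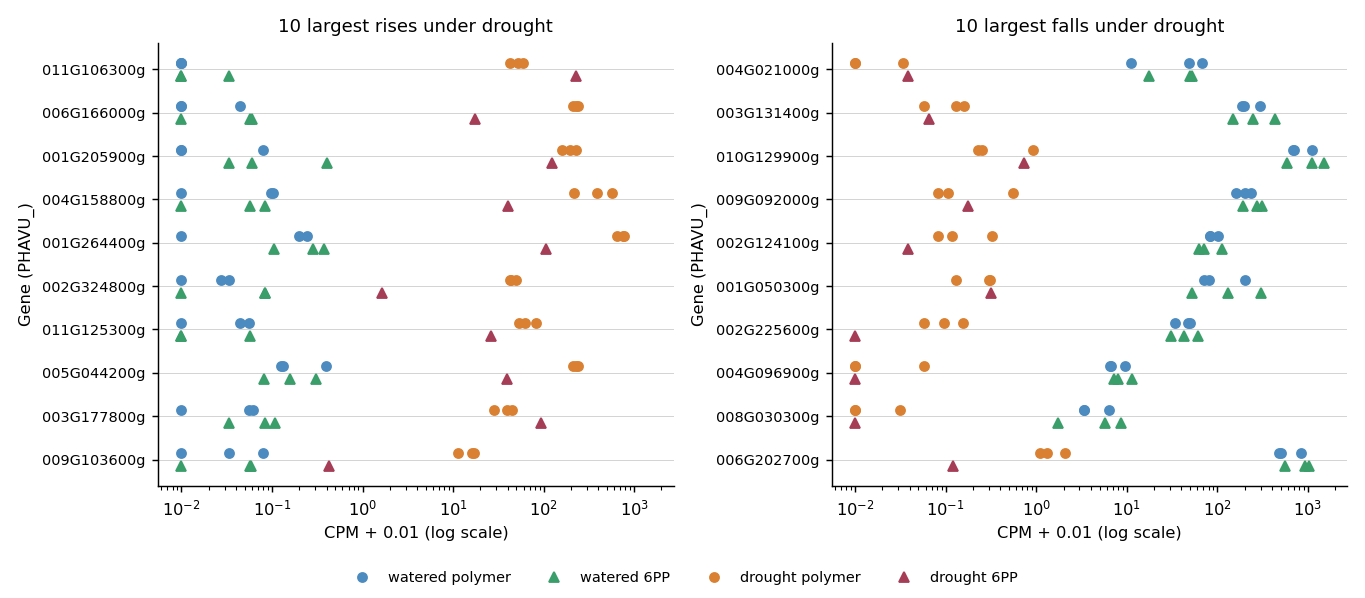
CPM + 0.01 (log scale) of the 10 single-exon genes with the largest rises and the 10 with the largest falls under drought, with a point for each library. In each row the 3 drought polymer libraries (orange) lie apart from the watered libraries (blue and green), and the drought 6PP library (dark red) lies on the drought side of the watered 6PP libraries, from 0.42 to 229 CPM in the rises.

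Some called members are neighbours. These runs were picked after their values were seen. PHAVU_009G1165001g, PHAVU_009G1165000g and PHAVU_009G116600g, between 17433306 and 17450654 of chromosome 9, had 0.48 to 3.19 CPM in watered and 58.6 to 357 CPM in drought polymer plants, with log2 fold changes of 5.89, 6.40 and 6.90. On chromosome 4, between 25161984 and 25227286, PHAVU_004G093000g, PHAVU_004G093100g and PHAVU_004G093200g fell, with log2 fold changes of −6.82, −4.82 and −6.56. Only 64.8%, 69.6% and 27.1% of the reads of the latter were uniquely placed, so reads may have been divided among near-identical copies. PHAVU_004G093000g and PHAVU_004G093200g had fewer than 10 reads in every drought library. They passed the read minimum through well-watered libraries only, so for them a call could only be a fall.

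The study names 12 of the members. Because they were chosen on these samples, their changes are not independent evidence of a direction. Under drought in polymer plants 1 rose, 1 fell and 10 were not called, where 12.6% of all genes tested were called. At an FDR of at most 0.05 without the other limits 11 of the 12 passed, beside 57.9% of all genes tested. The AP2/ERF transcription factor gene PHAVU_007G082000g rose from 0.43, 0.17 and 0.23 CPM to 34.0, 24.3 and 19.9 (log2 fold change 6.58, standard error 0.37, FDR = 8.59e-08). PHAVU_006G216800g, listed with electron transfer and redox genes, fell from 139, 142 and 152 CPM to 10.2, 16.7 and 20.9 (log2 fold change −3.18, standard error 0.24, FDR = 7.58e-07). The kinase genes PHAVU_008G030800g and PHAVU_008G030400g were lower in every drought polymer library but not called, with log2 fold changes of −2.04 (standard error 0.23) and −1.84 (standard error 0.23) and Bonferroni-adjusted p of 0.0554 and 0.115. PHAVU_001G043000g, also a kinase gene, had 94.9, 133 and 116 CPM in watered and 32.6, 47.0 and 56.7 in drought polymer plants, and PHAVU_004G039200g had 5.96 to 6.83 and 3.09 to 5.30 CPM. The chitinase gene PHAVU_011G167300g and the xyloglucan galactosyltransferase gene PHAVU_007G063500g had higher levels in every drought polymer library, with log2 fold changes of 1.52 and 1.60, and missed the Bonferroni limit. The homeobox or bHLH factor gene PHAVU_004G028600g and the cytoskeletal gene PHAVU_002G049700g had lower levels in every drought polymer library, with log2 fold changes of −0.78 and −2.25, and missed it as well. Of the exordium genes described with the coating, PHAVU_008G176000g had a log2 fold change of 1.58 and PHAVU_008G175800g overlapped between the groups, with a log2 fold change of −0.58 that was 0.07 without watered polymer replicate 1.

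The second comparison asked what 6PP coating changed in well-watered plants, with 3 libraries per group. No single-exon gene was called, and the share called over all genes was 0.0%. The smallest FDR among members was 0.615 (edgeR quasi-likelihood test). At an unadjusted p under 0.05 there were 212 members, or 5.62%, and the share over all genes was 5.57%. Of these members 121 were higher with 6PP, or 3.2% of all members, beside 2.25% of all genes and 1.95% of matched genes. Without watered polymer replicate 1 these 3 shares were 3.232%, 1.755% and 1.488%. The difference in direction was not tested. The 6PP and polymer libraries did not overlap for 9.75% of members, beside 10.6% of all genes. The median log2 fold change was 0.04 over members and 0.01 over matched genes, which differed by less than the spread among single 6PP libraries (SD 0.035). DESeq2 called 1 member, PHAVU_008G176000g, and 4 genes in all. Without watered polymer replicate 1 edgeR again called 0 members, the smallest FDR was 0.766, 212 members (5.62%, beside 4.15% of all genes) had an unadjusted p under 0.05, and libraries did not overlap for 19.97% of members, beside 19.4% of all genes.

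PHAVU_008G176000g, named in the study as an exordium gene, a family tied to brassinosteroid-promoted growth, lies on chromosome 8 from 46346937 to 46348002. It had 3.02, 2.58 and 1.94 CPM in watered polymer and 6.60, 4.92 and 8.35 in watered 6PP libraries, without overlap, for a log2 change of 1.40 (standard error 0.26, FDR = 0.615). The exordium gene PHAVU_008G175800g nearby had 14.9, 7.33 and 3.52 CPM in watered polymer and 21.1, 15.2 and 29.5 in watered 6PP libraries (log2 fold change 1.35, standard error 0.41, FDR = 0.785), and its log2 fold change was 2.01 without watered polymer replicate 1 (FDR = 0.766). PHAVU_002G049700g had 25.4, 15.7 and 11.3 CPM and 32.8, 24.5 and 46.8 CPM in these groups, which overlapped. By p the other members nearest to a call in the upward direction were PHAVU_003G160900g, with 20.2 to 20.96 CPM in polymer and 28.4 to 30.9 in 6PP plants, and PHAVU_010G128400g, with 10.8 to 13.4 and 17.3 to 21.3 CPM. In the downward direction they were PHAVU_005G031900g, with 110 to 115 CPM in polymer and 71.1 to 89.4 in 6PP plants, PHAVU_006G127600g, with 12.7 to 14.2 and 8.15 to 9.91 CPM, and PHAVU_010G039900g, with 37.1 to 43.6 and 21.8 to 30.4 CPM. The groups did not overlap for any of these 5 genes, and the FDR was 0.615 or higher for each.

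For 6PP under drought there was 1 library, so no p-value or error can be given and the library is set against the mean of the 3 drought polymer libraries, in log2 CPM with a prior count of 2. Among members, 2032 (53.8%, 95% Wilson interval 52.2% to 55.4%, counting error only) lay at least 0.6 from the mean and outside the range of the polymer libraries. As above, this interval treats genes as independent and leaves out the spread between libraries, which 1 library cannot give. Over all genes the share was 43.6%, with 17.7% higher and 25.9% lower, and in matched genes of 2 or more exons it was 46.3%. The excess over matched genes lay on the higher side, where 24.4% of members and 17.9% of matched genes were found, while 29.4% and 28.4% were lower. On the log2(TPM + 1) scale the members' share exceeded that of matched genes by 2.91 percentage points, instead of 7.57. On exon reads alone the difference was 7.12 percentage points. Intron reads in this library were 3.31% of the members' reads, within the 2.58% to 3.56% of the other libraries. They were 8.88% of the reads of genes of 2 or more exons, against 5.29% to 6.84%. The part of the intron share in these counts was not tested. Without the genes that moved with PHAVU_011G120500g the difference was 7.32 percentage points.

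The members furthest above drought polymer in that library were PHAVU_009G066100g, PHAVU_005G130300g and PHAVU_001G225000g. PHAVU_009G066100g had 1.07, 0.39 and 0.48 CPM in drought polymer, 65.2 in the drought 6PP library and 0 reads in every well-watered library. PHAVU_005G130300g had 8.76, 4.51 and 4.93 CPM and 145 in these, and PHAVU_001G225000g 16.4, 16.0 and 12.0 CPM and 353. Furthest below were PHAVU_009G103600g, PHAVU_002G324800g and PHAVU_008G252000g. Both lists are limited to members of at least 5 TPM with at least 90% of reads uniquely placed. PHAVU_004G093100g, of which 69.6% of reads were uniquely placed, differed by −4.91, against −4.73 and −4.58 for PHAVU_002G324800g and PHAVU_008G252000g. The first 2 are among the largest rises with drought in polymer plants, and had 0.42 and 1.65 CPM in the drought 6PP library against 11.4 to 17.0 and 42.5 to 49.0 in drought polymer. PHAVU_008G252000g had 13.5, 10.6 and 23.9 CPM in drought polymer and 0.59 in the drought 6PP library.

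Among genes with a symbol, PvCIPK2, PvCIPK3, PvCIPK4 and DREB6B differed by at most 0.33 between the drought 6PP library and the drought polymer mean (log2 CPM), and PDX1 by 0.30. HHHT had 72.9 CPM in the drought 6PP library, above every drought polymer library and within the 38.8 to 74.0 of watered 6PP plants. O6FAD, whose symbol stands for an omega-6 fatty acid desaturase, had 31.3 CPM there, against 178, 206 and 187 in drought polymer and 153 to 208 in watered 6PP. ppgip3 had 0.17 and ppgip2 0.45 CPM, both below the drought polymer libraries. Of the 12 members the study names, 9 lay outside the range of drought polymer libraries, as did 78.9% of members and 80.9% of all genes by the same criterion. PHAVU_007G082000g reached 103 CPM and the chitinase gene PHAVU_011G167300g 77.0, against 34.5 to 50.2 in drought polymer. The kinase gene PHAVU_001G043000g reached 273 CPM, while the kinase genes PHAVU_008G030400g and PHAVU_008G030800g had 5.30 and 12.2 CPM, below the 11.1 to 18.0 and 18.9 to 39.8 of drought polymer.

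The drought 6PP library was also set against the 3 watered 6PP libraries, which share no library with the drought comparison in polymer plants. At least 0.6 from the watered mean and outside the range were 67.5% of members, 58.2% of all genes and 61.0% of matched genes. Of the 180 members called higher under drought in polymer plants, 173 were higher in the drought 6PP library too, and 162 were past 0.6 and outside the range. Of the 280 called lower, 273 were lower and 256 past these limits. Over all genes tested, 47.5% lay on the higher and 52.5% on the lower side of the watered 6PP mean. Past these limits were 23.9% of all genes on the higher and 34.3% on the lower side. The median of the difference was 2.60 over the 180 and −3.46 over the 280, beside log2 fold changes of 2.44 and −2.90 in polymer plants. Among genes of 2 or more exons the same direction was found for 94.3% of those called higher and 96.3% of those called lower, against 96.1% and 97.5% of the members. Of these genes, 83.65% of those called higher and 91.74% of those called lower were past 0.6 and outside the range. The members' share was larger for those called higher, but at 91.43% not for those called lower. Members that passed the read minimum through drought libraries only (53) or well-watered libraries only (212) were not left out here. The filter limited their direction in both comparisons, so for them the agreement is not separate support.

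Replicates of single-exon genes differed more than those of other genes. The SD of log2 CPM within groups had a median of 0.32 over members, 0.28 over matched genes and 0.20 over all other genes. The order held in each group, with 0.28, 0.26 and 0.18 in watered polymer, 0.27, 0.24 and 0.19 in watered 6PP and 0.24, 0.21 and 0.14 in drought polymer. Members had fewer reads, with a median of 2200 over the 10 libraries against 2534 in matched genes, and matched on reads in place of TPM the difference in SD was 0.02 instead of 0.04. Without watered polymer replicate 1 the difference was 0.035. The median SD fell with abundance among members, from 0.76 in the lowest to 0.20 in the highest class of TPM.

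The 5 members of at least 5 TPM with the largest SDs differed widely between replicates, and none was called under drought, although 4 of them had an FDR of at most 0.05 and drought and watered polymer libraries that did not overlap. PHAVU_001G168900g had 33.7, 2.11 and 6.24 CPM in watered polymer, 72.5, 3.35 and 3.71 in watered 6PP, 46.2, 13.1 and 4.02 in drought polymer and 7.73 in the drought 6PP library. Replicate 1 was the highest in each of the 3 groups for this gene. PHAVU_008G2295001g had 17.1, 0.43 and 2.13 CPM in watered polymer and 18.9, 0.42 and 1.39 in watered 6PP, and 0 reads in every drought library. It passed the read minimum through well-watered libraries only, so its change could only be a fall. PHAVU_006G1073000g had 52.9, 4.30 and 13.3 CPM and 83.2, 4.57 and 9.62 CPM in the same groups and at most 0.28 in drought libraries. PHAVU_002G154700g, with 3.90% of its reads uniquely placed, had 28.8, 12.2 and 12.7 CPM in watered polymer and 2.54, 0 and 0 in drought polymer. Watered polymer replicate 1 weighed on these values. Without it the log2 fold changes under drought of PHAVU_001G168900g, PHAVU_008G2295001g and PHAVU_006G1073000g were 2.36, −8.77 and −6.41 in place of 0.60, −11.13 and −7.84. PHAVU_001G066700g had 0 CPM in watered polymer replicate 1, 1.00 and 1.36 in the others and 5.31, 10.3 and 8.62 in drought polymer (FDR = 0.0029), and is among the 153 members with 0 reads in that library and at least 10 in both others.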

How the data were processed

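Leaf RNA had been sequenced as paired reads, and the authors trimmed, aligned and counted them in CLC Genomics Workbench. BAT93 is the genome named in the paper, and coordinates are given as listed in the files, which name no assembly. The deposited tables hold raw counts (total gene reads and unique, exon and intron reads) and TPM computed by the authors. The deposited RPKM and other columns were not used here. Of 12 samples, 10 had a single table. The file of drought 6PP replicate 1 held 12 tables on other identifiers and was not used. The file of replicate 2 held 2 tables, of which 1 equalled replicate 3 in every cell and was counted with it as 1 sample, and the other, with 1033823623 gene reads, was not used. The replicates are pools of 5 plants.

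Total gene reads were normalized with TMM and fitted as 4 group means over 10 libraries with edgeR 4.0.16 in R 4.3.3, over all genes with at least 10 reads in 3 libraries. Each standard error was derived from the fit by dividing the size of the fold change (log2) by the root of its F statistic. For matching, genes of 2 or more exons were placed in 10 classes of mean TPM by 5 of exon length, cut at the quantiles of the members, and weighted by the number of members per class, with at least 10 genes in each. Alternatives were other normalizations, filters, read types and matchings, DESeq2 1.42.0, limma 3.58.1 on log2 TPM with a pseudocount of 1 or 0.1, a replicate block and leaving out each library.

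The members and lists were chosen with earlier results of these data known. Named genes are the 10 largest rises and falls under drought among called members that did not overlap between groups, had at least 90% of reads uniquely placed and at least 5 TPM, the 10 most abundant, those named in the paper, those with a symbol, the 3 nearest to a call in each direction for coating, the 3 largest differences in each direction in the drought 6PP library with the same limits on placed reads and TPM, and the 5 largest SDs at 5 TPM or more. Families could not be taken by product name because 0 identifiers matched the reference table used here. Sequences are not shown for the same reason.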

Additional observations from a re-analysis of the deposited data

Results flagged for a closer look

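With 1 drought 6PP library, the coating effect under drought and the drought effect in 6PP plants had no replicate check. For some named members the library lay on one side of all libraries it was compared with while the matching replicated comparison lay wholly on the other side. These differences between comparisons were not tested. Drought against well watered gave a log2 CPM difference of 1.14 in 6PP plants and a log2 fold change of −1.33 in polymer plants for the kinase gene PHAVU_001G043000g. The same comparison gave −2.56 and 0.27 for O6FAD, 2.48 and −2.04 for PHAVU_001G225000g, −0.74 and 1.58 for the exordium gene PHAVU_008G176000g, 0.44 and −0.75 for PHAVU_010G039900g, and 0.14 and −0.97 for ipK2. ipK2 has at most 2.54 CPM in any library.

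For coating, the difference of 6PP from polymer was −2.20 under drought and 0.61 when well watered for ppgip2, and 4.64 and −0.53 for PHAVU_005G130300g. It was −1.54 and 1.35 for PHAVU_008G175800g, −0.94 and 1.40 for PHAVU_008G176000g, and 0.57 and −0.61 for PHAVU_010G039900g. None of these genes was called between coatings in well-watered plants by edgeR. PHAVU_001G225000g and PHAVU_005G130300g were listed for their difference in the drought 6PP library. PHAVU_008G176000g and PHAVU_010G039900g were listed for a small p between coatings when well watered. Their opposite sides reuse the values that selected them and are not separate support. Outside the range of the drought polymer libraries lay 80.9% of all genes tested.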

How the results depend on the processing

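The 460 calls under drought became 1069 with DESeq2 and 2045 at an FDR of at most 0.05 alone, and with a library left out ranged from 294, for drought polymer replicate 2, to 382, for watered polymer replicate 1. The other alternatives gave 373 to 531. Between coatings in well-watered plants 0 calls became 1 with DESeq2 and stayed at 0 in the other alternatives. The share of members called under drought exceeded that of matched genes by 3.14 percentage points. This difference was 1.30 at an FDR of at most 0.05 alone, 2.03 with matching on mean TPM only, 0.57 with exon length only, 1.53 against genes of 2 or 3 exons and −0.50 without matching. Direction and size of this difference therefore depended on the matching. The difference of the medians of the log2 fold change under drought, 0.0074, ranged from −0.022 to 0.012 over the libraries left out and was −0.092 with matching on exon length only and −0.10 without matching.

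The difference of the median SD from matched genes, 0.037, was 0.068 with matching on mean TPM only, 0.104 on exon length only and 0.125 without matching. It was 0.033 with finer classes, 0.019 against genes of 2 or 3 exons, 0.020 with matching on gene reads, 0.024 with at least 10 reads in every library, 0.018 on log2(TPM + 1) and 0.031 to 0.040 with a library left out. In the drought 6PP library, the 7.57 percentage points by which members exceeded matched genes became 11.1 with matching on exon length only, 12.4 without matching, 5.19 against genes of 2 or 3 exons, 2.91 on log2(TPM + 1) and 2.19 on log2(TPM + 0.1). Its share of TPM on members exceeded the drought polymer mean by 11.04 percentage points, and by 2.42 without the 10 most abundant members, 4.39 as a share of gene reads and 4.14 of unique reads. Leaving out the genes that moved with PHAVU_011G120500g, an alternative chosen after seeing the data, gave 0.034 for the SD and −2.04 for the share where their TPM stays in the total, which lowers the share by construction, but 0.59 where it is left out of the total too. The difference of the drought 6PP library from drought polymer reversed for PDX1 (−0.0214 and −0.0216 on these TPM scales) and PvCIPK4 (−0.0582 and −0.0583). The causes were not tested.

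The main fit did not pair samples by replicate number. Deviations of libraries with the same number correlated at 0.05, −0.09 and 0.03 for drought and at 0.10, 0.18 and −0.02 for coating. Those with different numbers correlated at −0.11 to 0.15 for drought and −0.17 to 0.04 for coating. For coating, numbers 1 and 2 thus correlated above every pair of different numbers, and whether these samples shared more was not tested. With the number as a replicate block, 384 members were called under drought and 0 between coatings, and the differences from matched genes were 2.86 percentage points for calls under drought and 0.0004 and 0.03 for the medians. Among 824 refits of 47 named genes for drought, 26 lost and 22 gained a call and 0 changed direction. These were the largest rises and falls and the genes named in the paper or with a symbol, without MED4 and PHAVU_008G175800g. Of 79 named genes fitted without watered polymer replicate 1, 3 changed direction under drought. Log2 fold changes went from −0.04 to 0.17 for MED4, −0.58 to 0.07 for PHAVU_008G175800g and −0.08 to 0.88 for PHAVU_002G203800g. Below 1.12 TPM 0 members and 0.84% of genes of 2 or more exons were called.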
